A study of Danio rerio with 8 samples.

Results

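The genes th, plp1b and her4.3, which mark cells of the nervous system, were examined in iqgap1-/- zebrafish embryos. They were taken by symbol from the deposited table, whose 1293 genes had been selected by the authors for a difference. All 3 were in it, so their difference between the groups was a condition of being listed. The samples were 4 pools of iqgap1-/- embryos chosen for visible hemorrhage and 4 pools of wild-type embryos, all whole embryos at 53 hours post fertilisation. The design text gives 20 embryos to a pool, while the extraction protocol mentions single larvae, and the sources used here do not give the allele. Because only bleeding mutants were pooled, mutation and hemorrhage cannot be told apart.

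Tyrosine hydroxylase, the product of th, catalyses the rate-limiting step of catecholamine synthesis and marks dopamine and noradrenaline neurons. The gene plp1b encodes a proteolipid protein, a membrane protein of the family that dominates the myelin of the mammalian central nervous system, and is transcribed in oligodendrocytes. The product of her4.3 is a basic helix-loop-helix repressor of the Hes/Her family, which Notch signalling switches on in neural progenitors to hold back neuronal differentiation. In RNA from whole embryos, fewer cells of a type and less RNA per cell cannot be told apart.

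The mutated gene, iqgap1, was measured first. It averaged 1057 ± 153 normalized counts in mutant pools and 2157 ± 48.5 in wild-type pools (SD, n = 4 each). Its log2 fold change was -1.03 with an SE of 0.12 (edgeR quasi-likelihood test, adjusted p = 0.000992). Here a normalized count is an expected read count divided by a size factor of its library. The listed genes together had 394025 to 552331 expected counts in a mutant pool and 354272 to 453514 in a wild-type pool, a part of each library and not its depth. Of 1126 genes that passed a filter on low counts, 330 (29.3%) were called lower and 422 (37.5%) higher in the mutants at an adjusted p under 0.05. The scale set between the groups moves this split, since RLE size factors over the listed genes gave 465 lower and 113 higher. The labels do not say whether the pools came from separate clutches, so p-values measure the spread between these pools only.

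Of the 3 genes, th and plp1b fell in the mutants and her4.3 did not pass the test, although it was lower in every mutant pool. All 3 passed the filter on low counts. Mutant and wild-type pools did not overlap for any of them, as held for 38.8% of the tested genes in the downward direction. The 2 calls stand against a background of 29.3% of tested genes called lower. Among the 465 tested genes that were lower, 330 were called and 437 had no overlap, so neither trait sets the 3 genes apart.

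The catecholamine gene th (ENSDARG00000030621) had 90.8, 79.1, 69.1 and 85.8 normalized counts in mutant pools 1 to 4, against 138, 106, 145 and 130 in wild-type pools 1 to 4. The highest mutant pool lay below the lowest wild-type pool, and the wild-type pool nearest to the mutants was pool 2. The means were 81.2 ± 9.4 in mutants and 130 ± 17.1 in wild type (SD, n = 4 each). The log2 fold change was -0.67 with an SE of 0.15 (edgeR quasi-likelihood test, adjusted p = 0.0345), so that mutants held 62.8% of the wild-type level. In the authors' deposited table th stands at -0.67 with an adjusted p of 0.00135. The fitted fold changes rest on counts from that table and on an offset taken from its fold changes, so such a match was built in. In size the fall of th was among the smaller ones of that table, at rank 472 of the 532 lower genes. Its call was lost when mutant pool 2, 3 or 4 or wild-type pool 1, 3 or 4 was left out (adjusted p between 0.0768 and 0.118) and held without mutant pool 1 or wild-type pool 2.

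The myelin gene plp1b (ENSDARG00000011929) was measured from few reads, with recovered expected counts of 20, 9, 10 and 18 in mutant pools 1 to 4 and of 51, 28, 57 and 40 in wild-type pools 1 to 4. After scaling these became 19.5, 9.37, 12.8 and 19.1 normalized counts in mutants, against 47.5, 27.9, 48.4 and 36.9 in wild type. Mutant pools 2 and 3 were the lowest, and all mutant pools lay below wild-type pool 2, the lowest of its group. The means were 15.19 ± 4.95 in mutants and 40.16 ± 9.69 in wild type (SD, n = 4 each). The fall was -1.39 on the log2 scale with an SE of 0.29 (edgeR quasi-likelihood test, adjusted p = 0.0246) and left 38.1% of the wild-type level. This was the largest estimate of the 3 genes, but with these standard errors it cannot be ranked against that of her4.3 (-1.27 ± 0.38, SE). The authors' deposited table has a log2 fold change of -1.39 too, a match that was again built in. Its adjusted p there is 0.000278, and by size of the fall plp1b stands at rank 236 of the 532 lower genes. As for th, the call was lost without mutant pool 2, 3 or 4 or wild-type pool 1, 3 or 4 (adjusted p between 0.0513 and 0.0952).

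The Notch-responsive gene her4.3 (ENSDARG00000070770) varied most of the 3. It had 47.8, 62.4, 33.3 and 12.7 normalized counts in mutant pools 1 to 4, against 77.3, 62.8, 105 and 133 in wild-type pools 1 to 4. The groups all but met, since the highest mutant pool, pool 2, stood at 62.4 and the lowest wild-type pool, also numbered 2, at 62.8. The means were 39.1 ± 21.2 in mutants and 94.5 ± 31 in wild type (SD, n = 4 each). The log2 fold change of -1.27 ± 0.38 (SE) did not pass the edgeR quasi-likelihood test (adjusted p = 0.185), and it did not pass with any 1 pool left out either (adjusted p between 0.114 and 0.606). The authors' deposited table lists it at -1.27 with an adjusted p of 0.0336, by a method that the sources used here do not name. For given p-values the adjustment used here gives upper bounds, since small p-values of genes with no row could not enter it. The p-values themselves rest on a spread between pools estimated from the selected genes only, and the effect of that was not tested.

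The counts of her4.3 carry a further uncertainty. In the RefSeq gene order of the GRCz12tu assembly the gene stands in a row of related copies, her12, her4.2, her4.1, her4.3, her4.4 and her4.5, and her4.1 is also listed as a synonym of her4.3. RSEM divides a read that matches several transcripts among them, which gives counts that are not whole. The expected count of her4.3 was not whole in any of the 8 libraries, whereas those of th and plp1b were whole in all 8, as were those of 587 of the 1293 listed genes (45.4%). None of the 10 protein-coding neighbours of her4.3, 5 on each side, was in the table, so the other copies were not analysed here. The same count was 0 of 10 for th and 0 of 10 for plp1b, and none of the 3 genes lies on the chromosome of iqgap1 in that assembly.

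**Figure D1:**
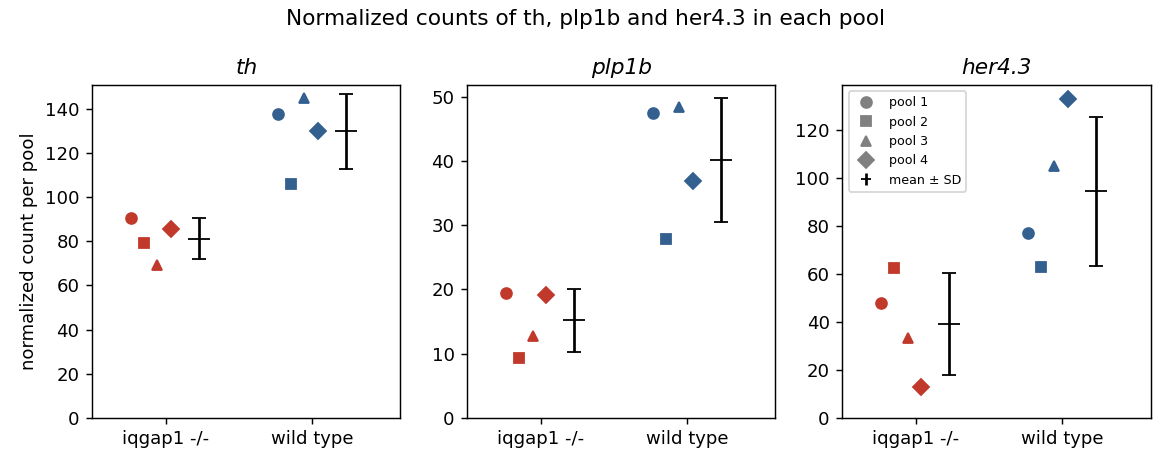
Normalized counts (vertical axes, from 0) of th, plp1b and her4.3 in each pool, with iqgap1-/- pools left and wild-type pools right. Symbols mark pool numbers, which are not known to pair the groups, and bars show the mean ± SD of 4 pools. For th and plp1b the groups are separated by a gap, while for her4.3 mutant pool 2 at 62.4 stands just under wild-type pool 2 at 62.8.

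The spread between pools was larger for her4.3 than for th and plp1b. The variance between pools was divided by the variance that read counting alone would give, and the ratio was compared with that of the 695 tested genes with a mean of 20 to 200 normalized counts. Over those genes the median ratio was 1.8 in mutants and 1.95 in wild type. For th the ratio was 0.944 in mutants and 2.36 in wild type, above that of 28.5% of the genes in mutants and 56.1% in wild type. For plp1b it was 1.53 in mutants and 2.45 in wild type, above that of 42.4% of the genes in mutants and 58.3% in wild type. For her4.3 it was 10.8 in mutants and 10.6 in wild type, above that of 93.2% of the genes in mutants and 93.5% in wild type. The order of pools also differed, as mutant pool 2 had the most her4.3 and the least plp1b, while mutant pool 4 had the least her4.3 and close to the most plp1b.

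Ratios of 2 genes within a pool do not depend on how libraries or groups are scaled, and they were compared for the 3 possible pairs. The log2 ratio of th to plp1b counts was 2.19, 3.01, 2.38 and 2.14 in mutant pools 1 to 4, against 1.53, 1.9, 1.58 and 1.8 in wild-type pools 1 to 4. Every mutant pool lay above every wild-type pool, so plp1b was lower relative to th in each of them. How often the ratio of other pairs of listed genes separates the groups was not counted, so this separation is a description only. The difference of means was 0.73 ± 0.22 (SE, n = 4 each; two-sided exact permutation test, p = 0.0286, the smallest that 4 against 4 pools can give), and it did not pass when adjusted over the 3 pairs (adjusted p = 0.0857). The log2 ratio of th to her4.3 differed by 0.76 ± 0.55 (exact permutation test, adjusted p = 0.3) and that of plp1b to her4.3 by 0.03 ± 0.71 (exact permutation test, adjusted p = 1), both with overlapping groups. These standard errors leave room for sizeable differences in either pair.

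**Figure D2:**
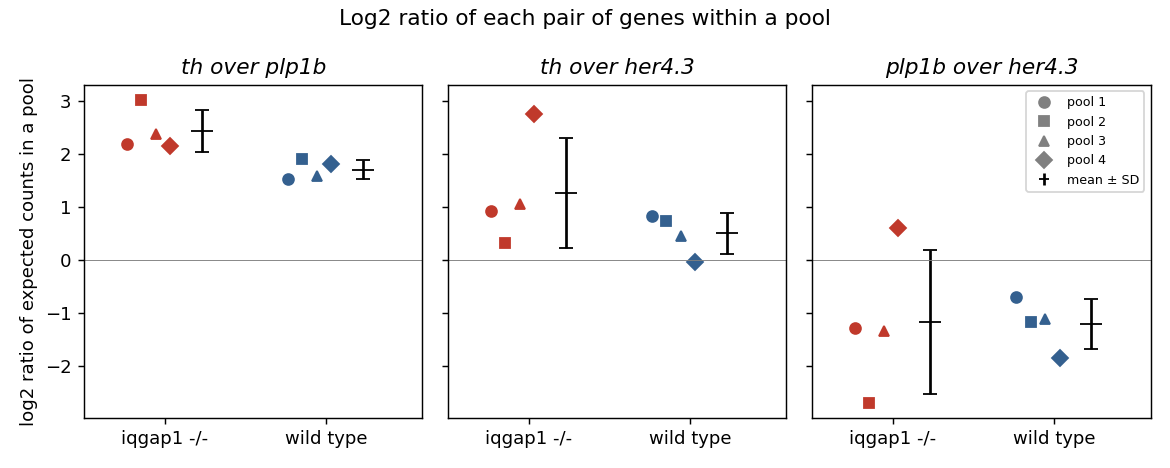
Log2 ratio of the expected counts of 2 genes within each pool (vertical axis, shared), with iqgap1-/- pools left and wild-type pools right, and mean ± SD of 4 pools. Only for th over plp1b do the groups separate, with mutant pools from 2.14 to 3.01 and wild-type pools from 1.53 to 1.9; mutant pools 2 and 4 stand at opposite ends of plp1b over her4.3.

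To see how far other genes of the same cells were listed, 7 lists with 306 distinct symbols were searched, of which 302 are known to the gene name tables. Only 5 of the 306 (1.63%) were in the table, th, plp1b, her4.3, her8.2 and apoea, where 1293 of the 26889 genes that the deposited p-values imply (4.81%) were listed. In the authors' deposited table all 5 were lower in mutants, as were 532 of the 1293 listed genes (41.1%). Since th, plp1b and her4.3 had been taken from the table, their presence and direction were known beforehand. The search added only her8.2 and apoea. The 5 had a median fitted log2 fold change of -0.67, which is the value of th, against 0.70 over all 1126 tested genes. The authors' selection left out small changes and held more higher than lower genes, which places that overall median. The contrast is therefore no result about neural genes. The test called 3 of the 5 lower, namely th, plp1b and her8.2. It called 29.3% of all tested genes lower, and 330 of the 465 tested genes that were lower. The label of a neuron, glia and progenitor group thus rests on single genes here. The other markers of these cells had no row among the genes that the authors selected, so their values are not known here.

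Among 44 genes of catecholamine synthesis, transport and neuron specification, th was the single one listed. Its paralogue th2, the decarboxylase gene ddc, the dopamine beta-hydroxylase gene dbh and the dopamine transporter gene slc6a3 had no row. Among 41 genes of oligodendrocytes and Schwann cells, plp1b was the single one listed, without its paralogue plp1a, the myelin basic protein genes mbpa and mbpb or the lineage regulators olig2 and sox10. No gene was listed of 42 for neural progenitors, such as sox2 and sox3, of 53 pan-neuronal and synaptic genes, such as elavl3 and snap25a, or of 44 for other transmitters and neuropeptides. All listed genes had a deposited log2 fold change of at least 0.5856 in size and a deposited adjusted p of at most 0.04997. The deposited values of th (-0.67), her8.2 (-0.66) and apoea (-0.63) lay close to that smallest change. A gene without a row may have changed slightly less than these, varied too much or been left out for another reason.

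Of 61 genes of the Notch pathway, 2 were listed, her4.3 and her8.2, and no ligand or receptor gene was. The gene her8.2 encodes another repressor of the Hes/Her family. It had 86.9, 87.4, 75.5 and 110 normalized counts in mutant pools 1 to 4, against 135, 136, 155 and 144 in wild-type pools 1 to 4. The mutant pools were all lower, and the wild-type pools were close together. Its log2 fold change was -0.66 with an SE of 0.14 (edgeR quasi-likelihood test, adjusted p = 0.0287), and its expected counts were whole in all 8 libraries. The call held with 1 of the 8 pools left out, mutant pool 4, and was lost in the other 7 cases (adjusted p up to 0.103).

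The radial glia and astroglia list had 1 of 27 genes in the table, apoea, an apolipoprotein E gene for lipid transport that is also expressed outside the nervous system. It had 5645, 4200, 4397 and 4420 normalized counts in mutant pools 1 to 4, against 5686, 6199, 9071 and 7890 in wild-type pools 1 to 4. Mutant pool 1 stood nearly level with wild-type pool 1, and the wild-type pools were uneven. The log2 fold change of -0.63 ± 0.17 (SE) did not pass the edgeR quasi-likelihood test (adjusted p = 0.0992), but did without mutant pool 1 (adjusted p = 0.0408). The same test passed apoea with TMM (adjusted p = 0.0171) and RLE factors (adjusted p = 0.0106), but not with a replicate block (adjusted p = 0.279). DESeq2 on the main scale also passed it (adjusted p = 0.0203).

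**Figure D3:**
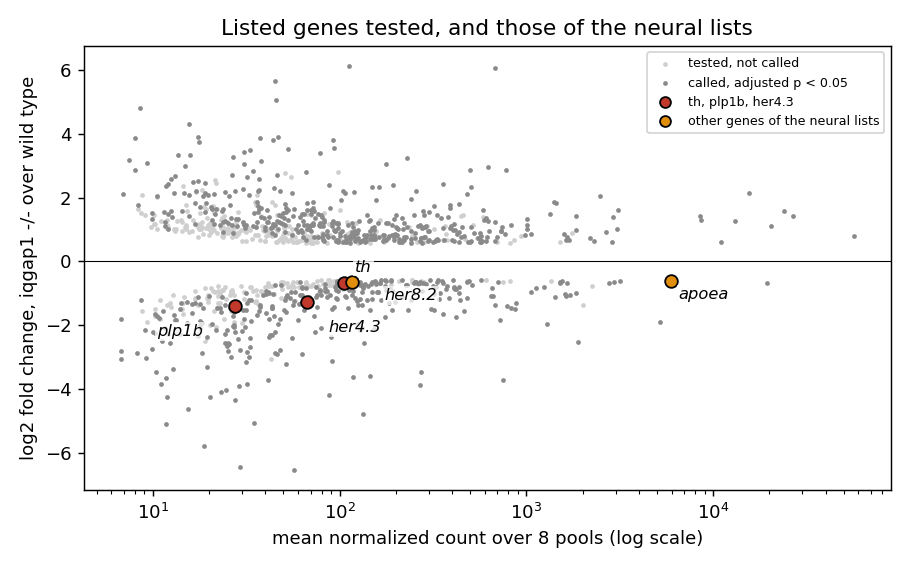
Log2 fold change, iqgap1-/- over wild type, against the mean normalized count over 8 pools (log scale) for the 1126 tested genes, each a point; the empty band around 0 comes from the authors' selection of changed genes. The 5 genes of the neural lists all lie below 0, with th, her8.2 and apoea next to the empty band.

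The scale between the groups moves each of these values. The fitted values use 1 offset taken from the authors' fold changes. With TMM factors over the listed genes every log2 fold change shifted by about -0.381, and with RLE factors by about -0.511. The log2 fold change of th became -1.05 with TMM and -1.18 with RLE, and that of plp1b -1.76 with TMM and -1.89 with RLE. For her4.3 it became -1.64 with TMM (edgeR quasi-likelihood test, adjusted p = 0.0522) and -1.78 with RLE (adjusted p = 0.0314), so that her4.3 passed with RLE only. All 5 genes of the neural lists stayed lower under both. Both methods assume a majority of unchanged genes, which a table of selected genes does not hold.

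**Figure D4:**
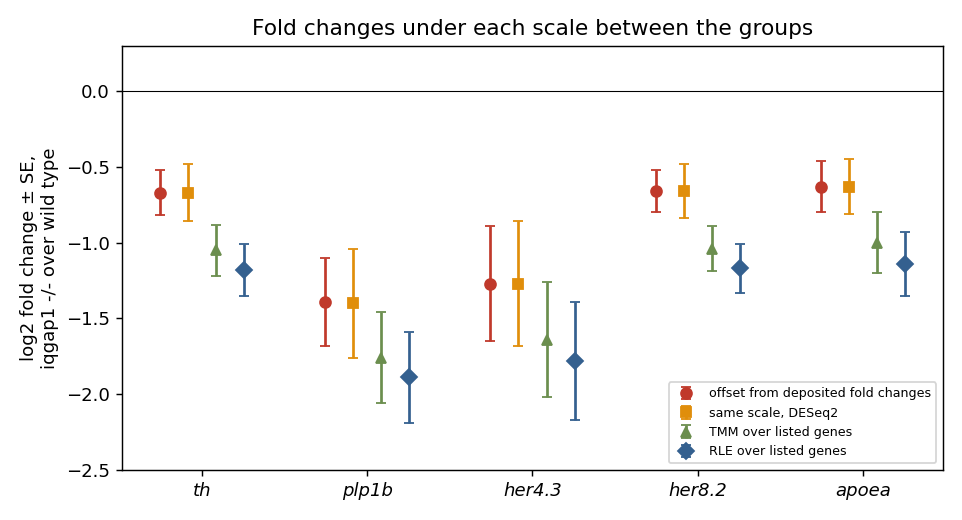
Log2 fold change ± SE, iqgap1-/- over wild type, of the 5 genes of the neural lists (4 pools in each group) with the offset from the deposited fold changes, with DESeq2 on that scale, and with TMM or RLE factors over the listed genes. All values lie below 0, and TMM and RLE move each of them further down.

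A further 10 listed genes with roles in neurons were picked after their values were seen, so their counts support nothing. Of these 5 were lower and 5 higher, and the test called 4 lower and 1 higher. Over all tested genes 29.3% were called lower and 37.5% higher. The pick was not complete, as syt13 and cbln12, both higher and called, were left out of the 10. The genes of the 10 called lower were htr2b for a serotonin receptor, chrm5a for a muscarinic acetylcholine receptor, lgi2b of a family of secreted synaptic proteins, and prnpb, a prion protein gene. Of these lgi2b had 85.9, 92.6, 63.9 and 68.9 normalized counts in mutant pools 1 to 4, against 152, 145, 138 and 152 in wild-type pools 1 to 4, which is -0.91 on the log2 scale with an SE of 0.14 (edgeR quasi-likelihood test, adjusted p = 0.00569). For prnpb the log2 fold change was -1.57 ± 0.25 (adjusted p = 0.00654), with 10.4 to 12.8 normalized counts in mutants and 23.9 to 41.6 in wild type. The receptor genes were measured from few reads, htr2b with 13.8 to 16.6 in mutants and 28.6 to 36.3 in wild type, and chrm5a with 3.91 to 6.24 in mutants and 10.2 to 14 in wild type. The call of chrm5a (adjusted p = 0.0454) was lost whichever pool was left out, and that of htr2b (adjusted p = 0.0119) in 2 of 8 cases.

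The only gene of this pick called higher was npas4a, for a transcription factor that neuronal activity induces. It had 22.5, 34.3, 28.1 and 15.9 normalized counts in mutant pools 1 to 4, against 2.79, 8.98, 4.24 and 7.37 in wild-type pools 1 to 4, which is 2.1 on the log2 scale with an SE of 0.37 (edgeR quasi-likelihood test, adjusted p = 0.0102). Its call was lost with RLE factors (log2 fold change 1.58, adjusted p = 0.0533). The remaining 5 did not pass. The glycine receptor gene glra4b had a log2 fold change of 1.01 ± 0.29, the GABA-B receptor gene gabbr1a of 0.65 ± 0.19 and the potassium channel gene kcnh1b of 0.62 ± 0.17. The sodium-activated potassium channel gene kcnt1 had -0.81 ± 0.23, and passed with RLE and TMM factors. The axonal adhesion gene cntnap2a had 0.67 ± 0.17 (adjusted p = 0.0781); mutant pool 1, at 305, lay among the wild-type pools, and without it cntnap2a passed (adjusted p = 0.00162).

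**Figure D5:**
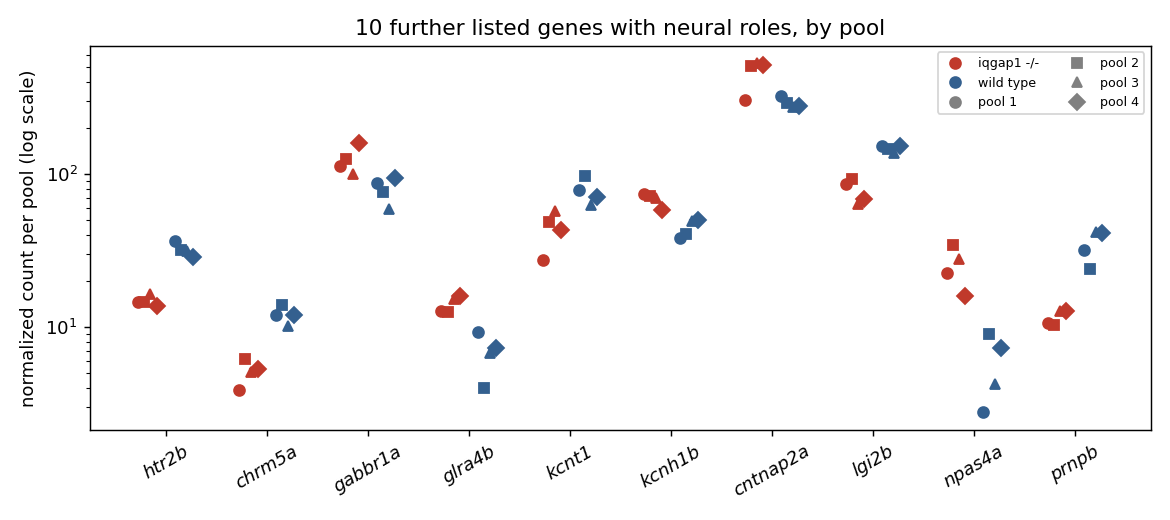
Normalized counts (log scale) of the 10 further listed genes with neural roles, iqgap1-/- pools left and wild-type pools right of each gene's mark, symbols for pool numbers. The groups are separate for all but cntnap2a, whose mutant pool 1 stands at 305 beside wild-type pools of 272 to 325. Separation is common among genes selected for a difference. Of 1126 tested genes, 437 (38.8%) had every mutant pool below every wild-type pool, and the share in the upward direction is not given here.

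Genes on lists of 4 other cell types were also in the table. Their calls are to be read against 37.5% of tested genes called higher and 29.3% called lower. Split by direction, the test called 422 of the 661 tested genes that were higher and 330 of the 465 that were lower. Of 30 erythrocyte genes 25 were in the table, all higher in the mutants, and 23 were called. Their summed level was 166687 to 218008 normalized counts in mutant pools and 53786 to 87400 in wild-type pools. Of 29 macrophage and microglia genes 9 were listed, 8 lower and 1 higher, and 1 was called higher and 7 lower. Their summed level was 13574 to 19218 normalized counts in mutants and 21155 to 27800 in wild type, and 96.6% of it was apoeb. Without apoeb the other 8 summed to 565 to 701 in mutants and 686 to 879 in wild type. That sum includes lcp1, the 1 higher gene, with a log2 fold change of 0.62 and a mean of 314.9, so it understates the fall of the rest. A row named MFAP4 (1 of many), which matches mfap4 of that list by name, was left out of these counts and sums. It was lower and called, with a log2 fold change of -1.53 and a mean of 190.4 normalized counts. The neural crest and pigment cell list, which covers other cells that share regulators with plp1b-expressing glia, had 3 of 28 genes listed, crestin and aox5 higher and oca2 lower and all 3 called, with a summed level of 1407 to 1493 in mutants and 943 to 1088 in wild type. Of 37 skeletal muscle genes 1 was listed, myha, lower and called, at 862 to 943 in mutants and 1313 to 1809 in wild type. The myosin heavy chain gene myhc4 was in the table but not on that list. It was higher and called, with a log2 fold change of 1.29 and a mean of 8569 normalized counts, so myha does not stand for the muscle genes of the table. Under RLE and TMM scaling no listed gene of these 4 lists that was tested changed direction, but calls of higher genes became fewer, for erythrocytes 6 of 24 tested with RLE and 12 of 25 with TMM. No listed gene of these lists was at 0 in all pools. What part these list differences have in the values of th, plp1b and her4.3 was not tested.

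For each of the 3 genes, the listed genes whose deviations from their group means ran most alike over the 8 pools were sought among 436 named genes with a mean of 50 or more normalized counts. With th ran sccpdha, a saccharopine dehydrogenase-like gene (Pearson r = 0.941), and the metalloproteinase gene mmp30 (r = 0.92). With plp1b ran cish, an inhibitor of cytokine signalling (r = 0.902), and the liver gene leg1.1 (r = 0.889). With her4.3 ran paqr3a (r = 0.922) and the tRNA splicing gene tsen15 (r = 0.887). These are the highest of many values over 8 pools, and any error of a size factor is shared by all genes of a pool. They are given as a description. The first 4 of these genes were higher in the mutants, with log2 fold changes of 2.33 for sccpdha, 0.65 for mmp30, 0.64 for cish and 1.09 for leg1.1, whereas paqr3a (-2.11) and tsen15 (-0.90) were lower; all 6 passed the edgeR quasi-likelihood test (adjusted p = 0.0287 or lower). With RLE factors mmp30 and cish were at 0.14 each and leg1.1 at 0.58, and these 3 no longer passed.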

How the data were processed

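RNA of 8 whole-embryo libraries was sequenced after ribosomal RNA depletion with random priming, per the labels' protocols. Trimmomatic, STAR 2.7, RSEM and the build danRer11 are named in the submitters' processing notes; their roles, the annotation and the strandedness are not stated in those notes. Per the file headers, the deposited table gives a log2 fold change and the same fold change as a linear ratio, both by the authors. It also has the authors' p-value and an adjusted one, per the file headers. Its values per library were expected counts that the authors had multiplied by 1 of 8 factors (0.9784 to 1.0252, running cyclically over cells); these were divided out, which made all 10152 nonzero values multiples of 0.01, and the expected counts were rounded for tests. The recovery and the test were checked on simulated data.

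Size factors came from medians of ratios within each group. An offset between groups (-0.231, log2) was set so that fitted and deposited log2 fold changes had a median difference of 0. Groups were compared with edgeR 4.0.16 in R 4.3.3 (filterByExpr with a minimum count of 10, glmQLFit, glmQLFTest). The filter left 1126 genes and removed 167. P-values were adjusted (Benjamini-Hochberg) over the 26889 genes that the deposited p-values imply, the genes with no row counting as p of 1. For given p-values the adjusted ones are therefore upper bounds, since some genes with no row may have had small p-values. The spread between pools behind the p-values was estimated from the tested listed genes only. What that selection does to the p-values was not tested. Standard errors come from the coefficient and its F statistic. Ratios within a pool used a pseudocount of 0.5. Alternatives were DESeq2 1.42.0, TMM or RLE scaling, a replicate block, no count filter, leaving out each library, and adjustment over tested genes. For ratios, the values as deposited and a pseudocount of 5 were also used. Libraries of a group differed beyond sampling noise (chi-square per degree of freedom of 2.52 or more). Genes named were the 3 members, iqgap1, listed genes of the 7 neural lists and the 2 most alike genes for each member; the 10 further genes were added by hand. Members and lists were chosen with earlier results of these data known.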

Additional observations from a re-analysis of the deposited data

Results flagged for a closer look

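Dixon's test compared the highest and the lowest of 4 pools with the rest of their group, for 22 genes named in the text and for the total over listed genes. Of 46 such groups 2 stood apart, where chance gives about 2.3. Both were mutant pool 1, which had the most apoea of its group (5645 normalized counts, the others 4200 to 4420) and the least cntnap2a (305, the others 506 to 528). Neither th, plp1b nor her4.3 had a pool that stood apart by this test.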

How the results depend on the processing

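The values of th, plp1b and her4.3 were below 0 under every alternative run. With a pool left out, the log2 fold change ranged from -0.76 to -0.61 for th, from -1.54 to -1.21 for plp1b and from -1.59 to -0.97 for her4.3, and 0 to 3 genes of the neural lists were called, against 3. Over all listed genes 799 were called without mutant pool 1, and 538 to 653 without any other pool, against 752. RLE scaling called 5 genes of the neural lists, her4.3 (-1.78) among them, and 113 listed genes higher, against 422; TMM called 162 higher. Adjustment over the tested genes alone called 5, with her4.3 at -1.27 (adjusted p = 0.00776), and 661 higher, since every tested gene then passed. Deviations of same-numbered pools correlated between -0.236 and 0.11, and 0 of 8 pools correlated best with its own number. The labels do not say whether pool numbers pair the groups, and such correlations over selected genes cannot decide it. With the replicate block th stayed at -0.67 but did not pass (adjusted p = 0.116), 1 gene of the neural lists (plp1b) was called, and 542 listed genes were. The difference in the log2 ratio of plp1b to her4.3 ranged from -0.56 without mutant pool 4 to 0.53 without mutant pool 2, and was -0.18 without wild-type pool 4; the cause was not tested. For th to plp1b it ranged from 0.53 to 0.82 and for th to her4.3 from 0.26 to 1.07 in the same way. With a pseudocount of 5 in place of 0.5 the difference was 0.49 for th to plp1b, 0.64 for th to her4.3 and 0.14 for plp1b to her4.3. Counts of 9 to 20 per mutant pool limit the precision of plp1b.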
